A study of Danio rerio with 4 samples.

Results

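The genes described here are those of DNA replication and S phase, the part of the cell cycle in which the genome is copied. They were taken from a list of 53 gene symbols by exact match to the symbol column of the deposited expression table, and kept at an average of at least 10 across the 4 libraries. The match found 52 of the 53 symbols and 53 Ensembl genes, because rrm2 stands on 2 genes, out of 19875 genes in the table. None was left out by the minimum: the lowest mean among them was 52.0, for cdc7. The listed symbol dut had no exact match, and the table holds a gene written DUT, which is given below beside the nucleotide genes.

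The study set ccn2a mutants beside wild type in injured zebrafish hearts; ccn2a codes for a matricellular CCN protein that cells secrete into their surroundings. Poly(A) RNA was profiled from ventricles, with atrium and bulbus arteriosus removed. There were 2 libraries from fish labelled ccn2a-/- and 2 from wild type, all taken 4 days after injury (written 4 dpci), and no uninjured group was analysed here. The labels give neither the ccn2a lesion nor age or sex, and do not say whether a sample was a heart or a pool, so p-values reflect how far these samples vary, perhaps only technically.

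Replication starts when the origin recognition complex marks start sites and cdc6 and cdt1 load the ring of MCM2 to MCM7 around the DNA, a step called licensing. Kinases then convert the ring, with cdc45 and the GINS complex, into the moving helicase, and polymerases, the sliding clamp PCNA and its loader follow behind it. In zebrafish, the injured ventricle regrows by division of cardiomyocytes, while endocardial, epicardial, fibroblast and immune cells also divide near the wound. In bulk RNA, fewer cycling cells and less of these transcripts per cell cannot be told apart.

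The replication genes were lower in the ccn2a mutant ventricles than in wild type almost throughout, but no member passed the threshold, and the libraries within a genotype differed widely. Of 53 members, 52 had a fitted log2 fold change below 0, against 50% of all 16730 genes tested. The median was -0.97 on the log2(value + 1) scale, about a factor of 2, with a median of 0.00 over all genes. It was -0.64 with mutant replicate 2 left out and -0.54 with wild-type replicate 2 left out. One of the 53, the rrm2 gene on chromosome 19, passed the minimum through a single wild-type library; without it 51 of 52 members were below 0 and the median was again -0.97. Values are read counts divided by a library factor and rounded by the authors, and genotypes were compared with limma-trend. The values were not scaled to equal totals: library sums ran from 16310160 to 21468746.

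At an adjusted p of 0.05 there were 0 calls over all genes (limma-trend, percent called 0%, smallest adjusted p = 0.207), and the members had adjusted p from 0.381 to 0.996. An unadjusted p under 0.05 was reached by 2145 genes (12.8%) in limma-trend and by 2817 in limma voom on approximate reads, which also made 0 calls. Of those 2145, 54.0% were lower in the mutant. Scaling libraries to the total without mitochondrial genes gave 2388 such genes, of which 77.1% were lower. Of the 2817 genes with voom, 81.3% were lower. Among the members, 26 were lower at an unadjusted p under 0.05 and 0 were higher, where 6.93% of all genes were lower and 5.89% higher by the same rule. That count of 26 became 17 when mutant replicate 1 was left out, 0 when mutant replicate 2 was, and 5 when wild-type replicate 2 was, where the share of all genes was 2.54%, 10.4% and 1.41%. With 4 libraries an exact permutation test of genotype cannot give a 2-sided p below 0.33.

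Both mutants lay below both wild types at 34 of 53 members, against 25.7% of all genes, and above both at 0 members, against 26.6%. The groups overlapped at the remaining 19. A log2 fold change of -1 or lower was found for 23 members, or 22 of 52 without the chromosome 19 rrm2 gene, against 8.95% of all genes. These shares describe the list and are not a test of it. Counts by role and by list below are to be read beside the same shares of all genes.

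**Figure D1:**
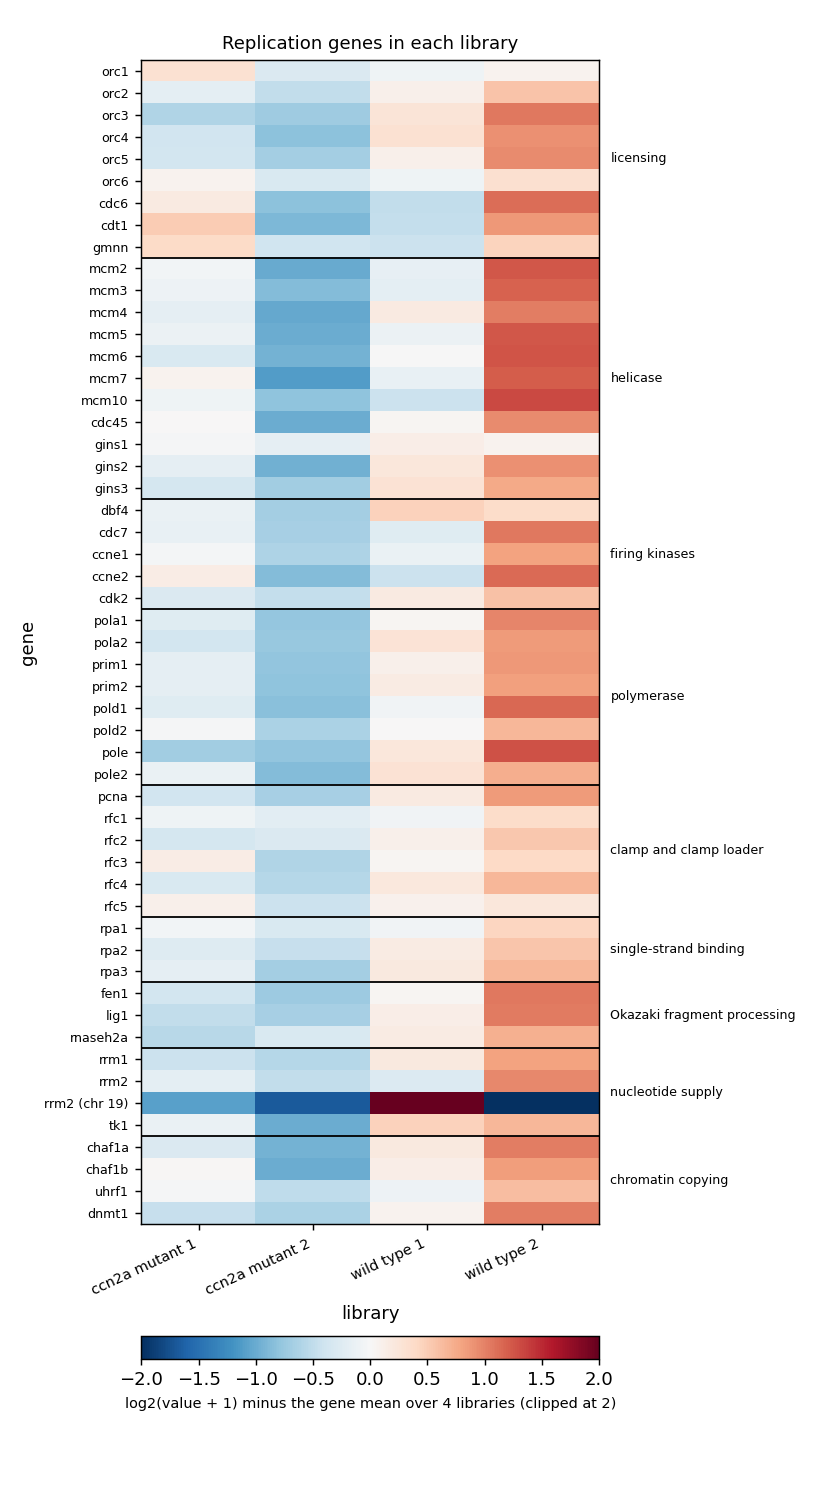
Each row is a replication gene and each column a library; colour gives log2(value + 1) minus the gene's mean over the 4 libraries, clipped at 2, with lines between roles. Wild-type replicate 2 was the highest library at 49 of 53 genes and mutant replicate 2 the lowest at 49. Over all 16730 genes tested these counts were 5580 and 3022. The second rrm2 gene on chromosome 19 is the row that stands apart.

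The 4 libraries formed a graded order over these genes. Mutant replicate 2 was lowest at 49 of 53 members and wild-type replicate 2 was highest at 49. Mutant replicate 1 and wild-type replicate 1 lay close together in between. Over all 16730 genes, mutant replicate 2 was lowest at 3022, and wild-type replicate 2 was highest at 5580 and lowest at 5585. Mutant replicate 1 was highest at 5522 of all genes and lowest at 5224. The median deviation from each gene's mean was -0.18 and -0.70 in mutant replicates 1 and 2, and 0.10 and 0.85 in wild-type replicates 1 and 2, on the log2 scale. Mutant replicate 1 was below wild-type replicate 1 at 35 members (66.0%, against 48.7% of all genes), with a median difference of -0.29, and above it at 18. Mutant replicate 2 was below wild-type replicate 2 at 52 members, with a median difference of -1.63. Within a genotype the members differed between replicates by a median of 0.53 in the mutants and 0.72 in wild type, against 0.32 and 0.33 for all genes.

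Reads assigned to genes were about 17.2 to 21.5 M per library, an estimate from the spacing of low values. The estimate is rough, as the spacing matched its factor with a correlation of 0.368 to 0.709. The ccn2a transcript (ctgfa in the table) was at 3070 and 1473 in the mutant libraries, compared with 4737 and 4411 in the wild types. It was lowest in the same library as the replication genes, but highest in wild-type replicate 1 and not in wild-type replicate 2. The lesion cannot be seen from a value per gene. The mitochondrial genome took 14.67% and 13.63% of the summed values in mutant replicates 1 and 2, and 13.35% and 7.66% in wild-type replicates 1 and 2. The 10 cardiomyocyte marker genes, 8 of them higher in the mutant fit, summed to 939151 and 848085 in the mutants and to 724744 and 471837 in wild type, so wild-type replicate 2 was lowest where the replication genes were highest. The 8 endothelial markers, all higher in the fit, summed to 31406 and 28544 against 26008 and 21430, and 8 erythrocyte genes, all higher, to 224494 and 205219 against 137884 and 117999. The 8 macrophage markers, 6 of them lower in the fit, summed to 36848 and 30815 against 33119 and 33806, with overlap. Much of the sum in mutant replicate 1 was cd74a, a gene higher in the fit, at 19483 and 10582 against 10353 and 4794. At an unadjusted p under 0.05 in limma-trend, 3 of the 8 were lower and 0 higher, against 6.93% and 5.89% of all genes. The lower ones were csf1ra, at 132 and 660 against 1090 and 926, and mfap4, at 419 and 645 against 1343 and 916. The other was c1qb, at 2435 and 2755 against 3667 and 4490. Both mutants were below both wild types at 4 of the 8 markers and above both at 1, against 25.7% and 26.6% of all genes. Fibroblast markers, 4 of 7 lower, summed to 244855 and 121309 against 149015 and 192047. Genes of exocrine pancreas, which a dissection could carry along, summed to 179 and 155 against 776 and 1303. Those of liver, likewise, summed to 4985 and 4356 against 5315 and 8102. Both sums followed the library order of the replication genes, but each was mostly 1 gene. These were ctrb1, at 98 and 82 against 704 and 1179, and tfa, at 4929 and 4350 against 5313 and 8096. The genes ela2l (59 and 50 against 44 and 23) and apoa2 (37 and 5 against 1 and 3) were higher in the mutants. Of the tested genes, 2 of 3 and 1 of 2 were lower. The limma adjusted p of ctrb1, 0.207, equalled the smallest over all genes. Thrombocyte genes, 1 of 4 lower, summed to 10156 and 5150 against 3657 and 4853. The sums of the epicardial list (4 of 6 lower) were 17389 to 18976 in the mutants and 17051 to 17284 in wild type, and those of the mural list (4 of 5 lower) 8076 to 9963 and 9589 to 12829. Neutrophil genes (4 of 7 lower) summed to 683 to 1037 and 895 to 990, and T lymphocyte genes (1 of 4 lower) to 104 to 141 and 111 to 254. No marker found in the table was at 0 in all 4 libraries. The part of cell makeup and of wild-type replicate 2 in the replication result was not tested.

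Of 9 licensing members 8 were lower, with a median log2 fold change of -0.64. Both mutants were below both wild types at 4, against 25.7% of all genes. The median became -0.14 when mutant replicate 2 was left out and -0.04 when wild-type replicate 2 was. The separated genes were all subunits of the origin recognition complex, while orc1, orc6, the loading factors and geminin overlapped.

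The origin recognition subunits form the complex that marks start sites. Among them, orc3 (chromosome 17, 49313504 to 49339681 in the deposited coordinates) had values of 164 and 151 in mutant replicates 1 and 2. In wild-type replicates 1 and 2 it was at 298 and 515. Its log2 fold change was -1.31 (SE 0.322, unadjusted p = 0.00653, limma adjusted p = 0.381), a level 2.48-fold lower. The subunit gene orc4 was at 201 and 148 against 325 and 497, with a log2 fold change of -1.22 (SE 0.311). Both genes were separated by genotype. The subunit orc5 was at 104 and 84 against 145 and 262, and orc2 at 110 and 89 against 135 and 187.

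The remaining subunits overlapped. The gene orc1, whose product binds ATP and recruits the loading factors, was at 345 and 228 in the mutant libraries, compared with 265 and 295 in the wild types, and it was the member with no negative fold change, at 0.00 with a 95% interval from -0.69 to 0.69. The gene orc6 was at 252 and 195 against 228 and 302. Mutant replicate 1 was the highest library for orc1 and the second highest for orc6, but the second lowest for orc3. Set against the mean of the complex in each library, orc1 departed by up to 0.58 on the log2 scale, more than any subunit of the MCM ring did from its own mean.

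The loading factors ranked the libraries as orc6 did, while their inhibitor had wild-type replicate 1 lowest. The gene cdt1, which brings the MCM ring to the origin, was at 106 and 39 in mutant libraries against 53 and 135. The gene cdc6, an ATPase that works with it, was at 140 and 70 against 88 and 271. The gene gmnn, which encodes geminin, the inhibitor that blocks cdt1 after S phase has begun, was at 189 and 110 against 108 and 198. In all 3 genes, mutant replicate 1 exceeded wild-type replicate 1 and wild-type replicate 2 was highest, so genotype did not separate them. The log2 fold changes of cdt1, cdc6 and gmnn were -0.39, -0.64 and -0.02, with 95% intervals from -1.96 to 1.18, from -2.13 to 0.85 and from -1.06 to 1.02. Without wild-type replicate 2 they were 0.28, 0.17 and 0.41. The intervals of cdt1 and cdc6 held the values of orc3 and orc4, and the difference between loading factors and origin recognition subunits was not tested.

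All 11 helicase members were lower, with a median log2 fold change of -1.06, and of -0.60 with mutant replicate 2 left out or -0.44 with wild-type replicate 2 left out. At 6 of them both mutants were below both wild types, against 25.7% of all genes. At an unadjusted p under 0.05, 4 were lower, against 6.93% of all genes.

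**Figure D2:**
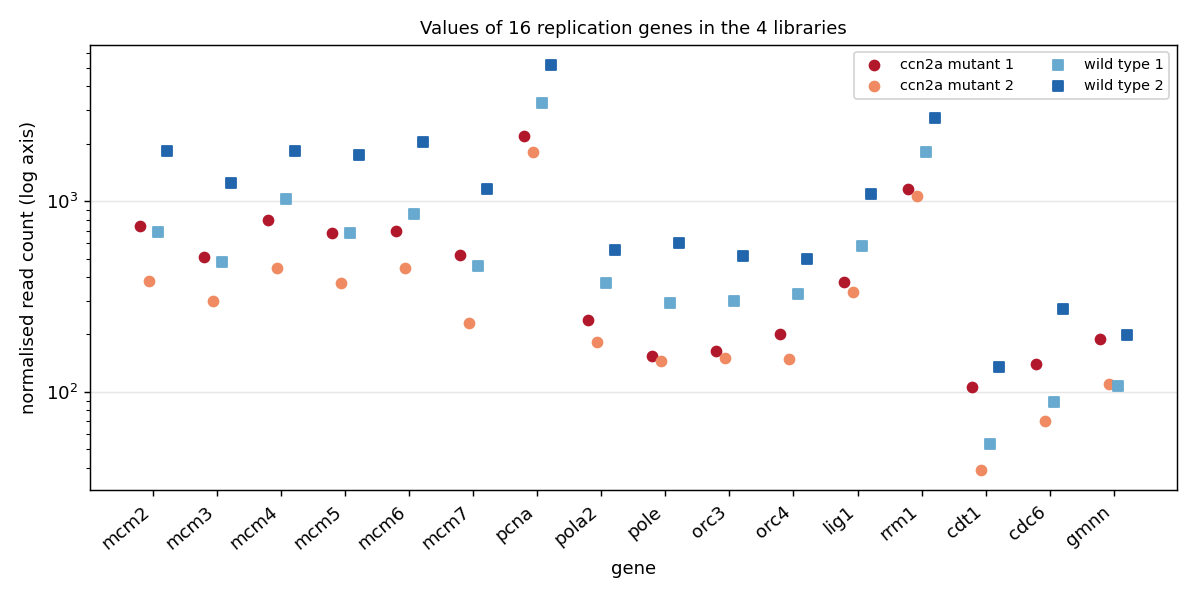
Normalised read counts of 16 replication genes, on a log axis, with a point for each library; circles are ccn2a mutants and squares wild type. In mcm2, mcm3, mcm5 and mcm7 mutant replicate 1 lies at or above wild-type replicate 1, while in pola2, pole, orc3, orc4, lig1 and rrm1 both mutants lie below both wild types.

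The ring itself is built from MCM2 to MCM7, a subunit from each gene. The gene mcm6 (chromosome 6, 12968101 to 12985390) was at 699 and 445 in the mutant pair against 853 and 2053, and mcm4 (chromosome 24, 35536664 to 35561672) was at 798 and 448 against 1028 and 1843. These were the ring genes with the genotypes apart, at log2 fold changes of -1.25 (SE 0.450) and -1.20 (SE 0.387). The gene mcm2 was at 742 and 382 against 688 and 1830. The gene mcm5 was at 685 and 371 against 683 and 1748. The gene mcm7 was at 525 and 230 against 455 and 1159, and mcm3 at 509 and 299 against 477 and 1238. In these 4 genes mutant replicate 1 was slightly above wild-type replicate 1, so the genotypes overlapped.

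The ring genes kept nearly fixed proportions to each other while their common level changed. Their values summed to 3958 and 2175 in the mutants and to 4184 and 9871 in wild type, and their mean log2 level spanned 2.19 over the libraries. Within a library, no ring gene departed from that common level by more than 0.26 on the log2 scale, relative to its own average departure, and that largest value was mcm4 in wild-type replicate 1. Replicates of wild type differed in the ring genes by a median of 1.35 on the log2 scale, next to a median of 1.29 by which mutant replicate 1 lay below wild-type replicate 2.

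The factors that turn the ring into a helicase were uneven. The gene gins2 was at 111 and 64 in mutant libraries against 148 and 239, and gins3 at 64 and 50 against 100 and 138, with log2 fold changes of -1.15 (SE 0.404) and -1.04 (SE 0.348). The third GINS gene among the members, gins1, was at 201 and 181 against 224 and 214. That was a separation by genotype of -0.20 on the log2 scale (95% interval from -0.79 to 0.39). The gene gins4, outside the members, overlapped at 166 and 118 against 165 and 276. The gene cdc45 was at 142 and 70 against 145 and 271, and mcm10, a scaffold for helicase activation, at 55 and 33 against 43 and 148. Mutant replicate 2 was lowest for each of these genes.

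Kinases that fire origins were lower at 5 of 5, with a median of -0.77, and at -0.20 without wild-type replicate 2. The gene cdk2, the cyclin-dependent kinase of S phase entry, was at 192 and 169 in the mutant pair against 268 and 354, with a log2 fold change of -0.77 (SE 0.261). The gene dbf4, the activating subunit of the Cdc7 kinase that phosphorylates the MCM ring, was at 50 and 34 against 76 and 71. These 2 of 5 genes had both mutants below both wild types, against 25.7% of all genes. The kinase gene cdc7 was at 42 and 29 against 39 and 98, the cyclin E gene ccne1 at 96 and 64 against 90 and 173, and ccne2 at 102 and 50 against 68 and 203. In those 3 genes mutant replicate 1 exceeded wild-type replicate 1, and ccne2 had a log2 fold change of 0.07 without wild-type replicate 2.

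The genotypes were apart at every polymerase gene among the members. Each of the 8 had both mutants below both wild types, against 25.7% of all genes. At an unadjusted p under 0.05, 6 were lower, against 6.93% of all genes. The median log2 fold change was -1.01. It was -0.62 with wild-type replicate 2 left out and -1.38 with wild-type replicate 1 left out. In all 8 genes the order was mutant replicate 2, mutant replicate 1, wild-type replicate 1 and wild-type replicate 2, from low to high. Of further polymerase subunits tested outside the members, pold3 and pole4 overlapped, at log2 fold changes of 0.18 and -0.05. The subunit gene pole3 was apart, at -0.24.

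Leading-strand synthesis is the work of DNA polymerase epsilon, and its catalytic gene pole (chromosome 5, 12743640 to 12804906) was at 154 and 145 in mutant libraries against 292 and 605. Its log2 fold change of -1.49 (SE 0.378, unadjusted p = 0.00764, limma adjusted p = 0.381), 2.80-fold lower, was the lowest among the members apart from the second rrm2 gene. Its partner pole2 was at 94 and 56 against 127 and 171. For DNA polymerase delta, which copies the lagging strand, the catalytic gene pold1 was at 295 and 195 against 331 and 772, and pold2 at 192 and 126 against 197 and 310. In pold2 mutant replicate 1 and wild-type replicate 1 were nearly equal.

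DNA polymerase alpha and its primase lay the short starting strands. The gene pola2 (chromosome 8, 17174796 to 17184482) was at 238 and 182 in the mutant pair against 371 and 553, with a log2 fold change of -1.12 (SE 0.293). The gene pola1 was at 294 and 203 against 354 and 680. The primase genes followed the same order, prim1 at 204 and 134 against 249 and 424, and prim2 at 224 and 144 against 283 and 450. No gene of these 4 departed from their common level by more than 0.13 on the log2 scale.

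**Figure D3:**
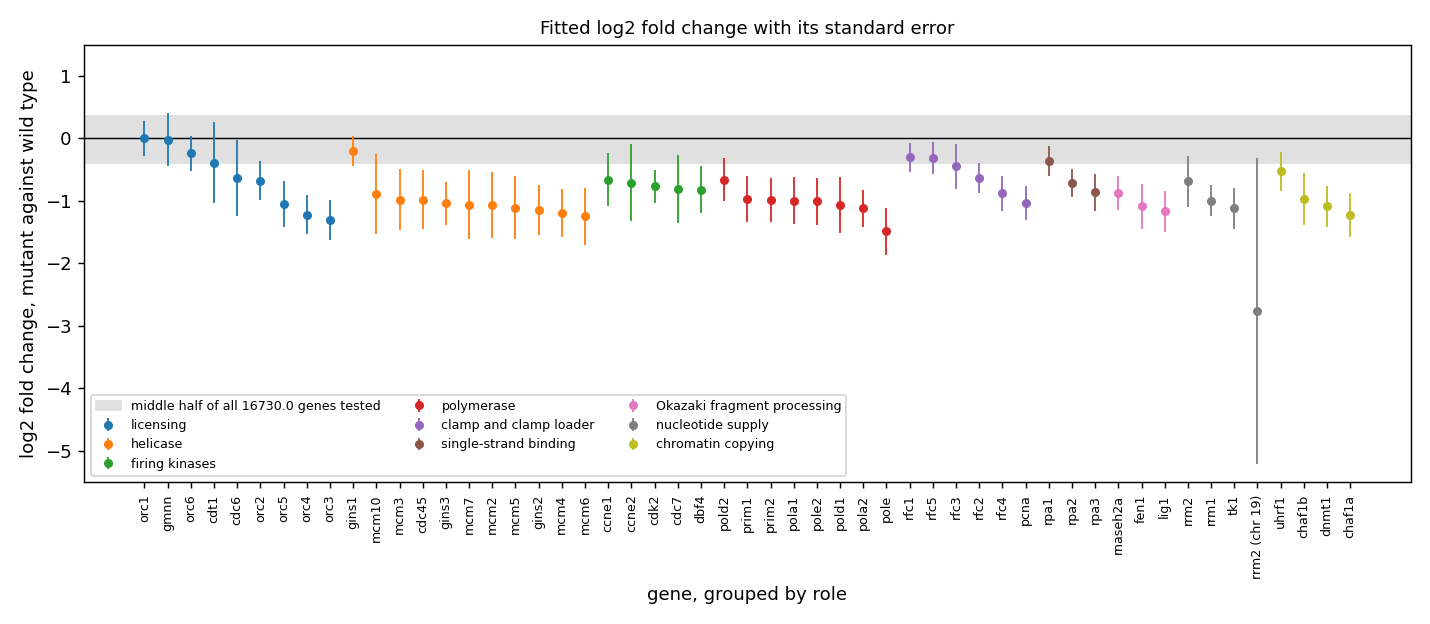
Points are fitted log2 fold changes of ccn2a mutant against wild type for the 53 genes, grouped by role, with bars of 1 standard error; the grey band holds the genes between the lower and upper quartile among all 16730 tested. Polymerase genes lie between -1.49 and -0.66, licensing genes between -1.31 and 0.00, and the wide bar belongs to the second rrm2 gene.

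The sliding clamp and its loader were lower at 6 of 6 genes, with both mutants below both wild types at 4, against 25.7% of all genes. The gene pcna (chromosome 10, 40821804 to 40826657), whose ring tethers the polymerases to DNA, was at 2193 and 1809 in mutant libraries against 3257 and 5183, or 2001 ± 271.5 against 4220 ± 1361.9 (mean ± SD, n = 2 each). Its log2 fold change was -1.04 (SE 0.275, unadjusted p = 0.00890, limma adjusted p = 0.381), with the genotypes apart.

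The 5 genes of replication factor C, which opens and loads the clamp, had a median of -0.45. The gene rfc4 was at 175 and 145 in the mutant pair against 250 and 345, with -0.88 (SE 0.280), and rfc2 at 292 and 304 against 400 and 539, with -0.64 (SE 0.242). The large subunit gene rfc1 was at 541 and 499 against 550 and 744. The genes rfc3, at 126 and 75 against 117 and 151, and rfc5, at 443 and 306 against 436 and 483, overlapped between genotypes. The intervals of rfc1, rfc3 and rfc5 all included 0, at log2 fold changes of -0.30, -0.45 and -0.32. The interval of pcna, from -1.72 to -0.37, held the values of rfc2, rfc3 and rfc4, and the difference between pcna and the loader genes was not tested.

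Single-strand binding genes, whose trimer coats unwound DNA, had a median of -0.72. The gene rpa2 was at 598 and 519 in mutant libraries against 805 and 1045, with -0.72 (SE 0.224), and rpa3 at 244 and 171 against 315 and 436, with -0.86 (SE 0.297). The large subunit gene rpa1 was at 1392 and 1162 against 1381 and 1942. The genotypes were apart at rpa2 and rpa3 and overlapped at rpa1, where mutant replicate 1 and wild-type replicate 1 differed by 0.01 on the log2 scale. Both mutants were thus below both wild types at 2 of 3 genes, against 25.7% of all genes.

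All 3 genes of Okazaki fragment processing were lower with the genotypes apart, where 25.7% of all genes had both mutants below both wild types. Their median was -1.09, which was -0.59 without wild-type replicate 2 and -1.60 without wild-type replicate 1. The gene lig1 (chromosome 2, 44301276 to 44344321), the ligase that seals the lagging strand, was at 376 and 333 in the mutant pair against 582 and 1087, with a log2 fold change of -1.17 (SE 0.328). The flap nuclease gene fen1, which trims the fragments, was at 500 and 388 against 659 and 1337. The gene rnaseh2a, which encodes the catalytic subunit of a nuclease that removes ribonucleotides from DNA, was at 223 and 264 against 366 and 536. With rfc2, rnaseh2a was a member at which mutant replicate 1 was the lowest library.

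Nucleotide supply was measured by 4 genes. The gene rrm1 (chromosome 21, 30772043 to 30787414), the large subunit of ribonucleotide reductase, which makes deoxyribonucleotides, was at 1163 and 1063 in mutant libraries against 1810 and 2737. Its log2 fold change was -1.0 (SE 0.250, unadjusted p = 0.00704, limma adjusted p = 0.381), 2.0-fold lower. The thymidine kinase gene tk1 was at 287 and 159 against 433 and 504, with -1.12 (SE 0.331). Both mutants were below both wild types at these 2 of the 4 genes, against 25.7% of all genes.

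The small reductase subunit had 2 genes of the same symbol. The copy on chromosome 20 (ENSDARG00000020711, 29492469 to 29499426) was at 574 and 467 in the mutant pair against 546 and 1282, so the genotypes overlapped, with a log2 fold change of -0.69 (SE 0.411). The copy on chromosome 19 (ENSDARG00000078069, 47564890 to 47571808) was at 274 in wild-type replicate 1, with 0 in the other wild type and 2 and 1 in the mutants. That single library carried it past the minimum mean, its fitted log2 fold change of -2.76 (SE 2.448) rests on it, and without that library the fit gave 1.29 from values of 0 to 2. A gene near it in the table, the actc1a copy on chromosome 19 (ENSDARG00000076126, 47549568 to 47555956), was likewise high in wild-type replicate 1, at 5136 against 159 in the other wild type and 151 and 101 in the mutants, and both symbols also stand on chromosome 20. These genes were set side by side after their values were seen. Reads shared between the copies could be counted to either, and the authors' treatment of such reads is not known here. The overlap at the chromosome 20 copy of rrm2 therefore holds for that gene alone, and the copies were not summed. Why both genes were high in wild-type replicate 1 alone was not tested. The gene written DUT (chromosome 18), a dUTPase by its symbol and no member by exact match, went the other way, at 2281 and 1937 against 1858 and 1489.

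Chromatin copying genes were lower at 4 of 4, with a median of -1.03, which became -0.68 on leaving out mutant replicate 2 and -0.62 on leaving out wild-type replicate 2. The gene chaf1a, the large subunit of the chromatin assembly factor that deposits histones behind the fork, was at 621 and 394 in mutant libraries against 872 and 1542, with -1.23 (SE 0.356). Its partner chaf1b was at 351 and 174 against 381 and 617. The maintenance DNA methyltransferase gene dnmt1 was at 702 and 627 against 1014 and 1972, with -1.09 (SE 0.334), or -0.61 without wild-type replicate 2. These 3 of 4 genes had both mutants below both wild types, against 25.7% of all genes. The gene uhrf1, which guides dnmt1 to newly copied DNA, overlapped at 485 and 349 against 463 and 761.

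**Figure D4:**
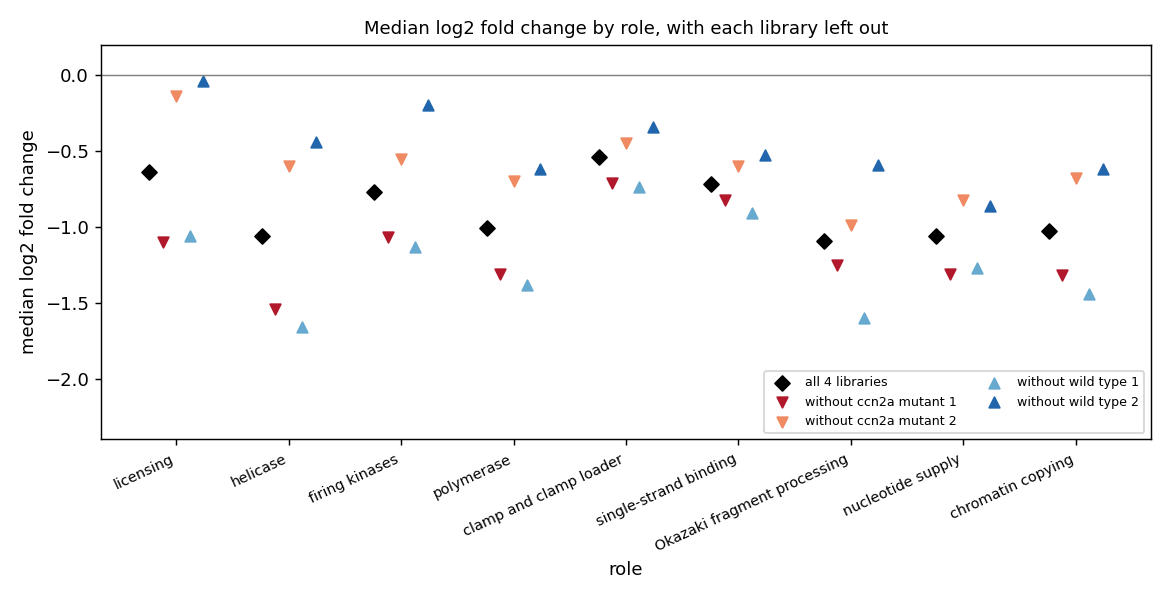
Median log2 fold change of each role with all 4 libraries (diamonds) and with a mutant (downward triangles) or wild-type library (upward triangles) left out. All medians stay below 0; the licensing median comes to -0.04 and the firing kinase median to -0.20 without wild-type replicate 2.

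Mutant replicate 1 exceeded wild-type replicate 1 at 8420 of all 16730 genes. The 18 members at which it did so were unevenly spread over the roles. They included 5 of 9 licensing, 5 of 11 helicase and 3 of 5 firing kinase genes, but 0 of 8 polymerase and 0 of 3 Okazaki fragment genes. The others were rfc3, rfc5, rpa1, the chromosome 20 copy of rrm2 and uhrf1. This spread was seen in the data and was not tested.

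Further genes of the pathway, taken from lists that name them by function, were given the same fit. These lists, and the mitosis list below, were chosen with earlier results of these data known. Their counts are therefore no independent support. Of 23 tested genes of the fork and of initiation, 22 were lower (median -0.76), against 50% of all genes. At an unadjusted p under 0.05, 9 were lower, against 6.93%, and both mutants were below both wild types at 14, against 25.7%. The fork scaffold gene wdhd1 was at 126 and 85 in the mutant pair against 202 and 482, the clamp-unloading gene atad5a at 229 and 244 against 383 and 625, and timeless, which stabilises forks, at 495 and 455 against 659 and 979. The exception in direction was pold3, a further subunit of DNA polymerase delta, at 508 and 491 against 357 and 542. In these genes wild-type replicate 2 was highest at 22 of 23, against 5580 of all 16730 genes.

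Other nucleotide genes were mixed. Of 19 tested, 14 were lower and 5 higher (median -0.49). At an unadjusted p under 0.05, 8 were lower and 1 higher, against 6.93% and 5.89% of all genes. The salvage kinase gene dck was at 119 and 95 in mutant libraries against 241 and 314, with a log2 fold change of -1.36 (SE 0.286). The folate enzyme gene mthfd1b was at 329 and 375 against 620 and 770, and cad, which starts pyrimidine synthesis, at 536 and 548 against 872 and 1163. The gene on the higher side was rrm2b, a reductase subunit induced by p53 in mammals, at 687 and 559 against 409 and 406, with a log2 fold change of 0.60 (SE 0.214). For these 4 genes the groups did not overlap, and rrm2b differed in direction from rrm1.

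Chromatin copying genes outside the members were lower at 17 of 17 (median -0.70). At an unadjusted p under 0.05, 7 were lower, against 6.93% of all genes. They were led by rbbp4 at 1177 and 1202 against 1688 and 2131, and tonsl at 69 and 58 against 116 and 159. Next was ssrp1a at 333 and 331 against 490 and 1054. The E2F and Rb genes, which switch S-phase transcription on and off, had a median of only -0.16, with 12 of 16 lower. At an unadjusted p under 0.05, 2 were lower, against 6.93% of all genes. Those were e2f1 at 11 and 16 in the mutant pair against 35 and 85, and e2f8, a repressor, at 157 and 125 against 193 and 337. The retinoblastoma gene rb1 was at 437 and 380 against 494 and 885. In the deposited KEGG annotation of DNA replication, 33 of 36 tested genes were lower, with a median of -0.86, and 25 of the 36 are members. The 11 genes that are no members had a median of -0.08, with 8 lower. Among them, dna2, pole3, pold3, pole4, rnaseh2b and rnaseh2c also stand in the fork and initiation list above. At an unadjusted p under 0.05, 1 of the 11 was lower, against 6.93% of all genes. It was dna2, at 30 and 20 against 51 and 61.

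Mitosis genes were compared as the nearest group by function. All 42 tested were lower (median -0.96), against 50% of all genes, so their median was close to that of the replication genes. At an unadjusted p under 0.05, 33 were lower, against 6.93% of all genes. Both mutants were below both wild types at 39, against 25.7% of all genes. Condensin compacts chromosomes for division, and its gene smc2 had mutant values of 510 and 630 beside wild-type values of 1141 and 1514. Other condensin genes were ncaph, at 174 and 243 in mutant libraries against 440 and 582, and ncapd2, at 451 and 579 against 948 and 1174. The order of the libraries was another: mutant replicate 1 was the lowest at 39 of 42 mitosis genes, and at 2 of 53 replication genes. Over all 16730 genes it was the lowest at 5224. Mutant replicate 1 lay below mutant replicate 2 by a median of 0.69 on the log2 scale over the mitosis genes and above it by a median of 0.53 over the replication genes. In wild type, replicate 1 was below replicate 2 at 17 mitosis genes and at 50 replication genes, against 49.6% of all genes. With single libraries on each side, this contrast has no replicate and was not tested.

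**Figure D5:**
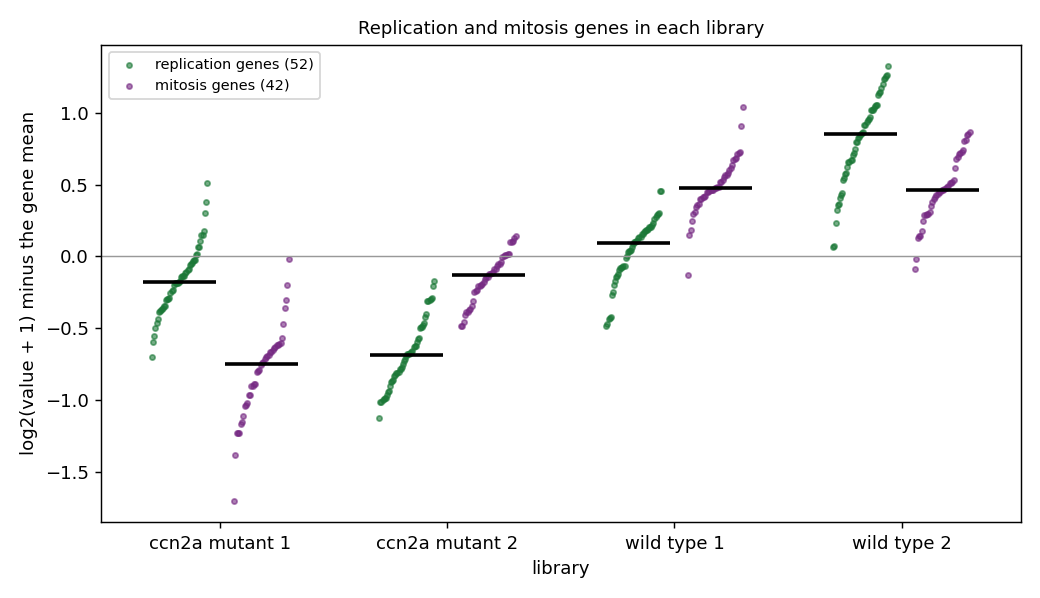
Points are genes, placed by log2(value + 1) minus the gene's mean over the 4 libraries, for 52 replication genes (without the second rrm2) and 42 mitosis genes; black lines are medians. Replication genes are lowest in mutant replicate 2 (median -0.69) and highest in wild-type replicate 2 (0.85), whereas mitosis genes are lowest in mutant replicate 1 (-0.75) and level in the wild types (0.48 and 0.46).

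The members are spread over 24 chromosomes in the table.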

How the data were processed

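Poly(A) RNA libraries came from 2 ccn2a mutant and 2 wild-type ventricle samples, prepared with a stranded kit per the labels' protocols. STAR 2.4.0a, featureCounts 1.4.5-p1 from Subread, DESeq2 1.6.2 and the build GRCz10 (danRer10) are named in the submitters' processing notes; settings, strand option and the filter on low genes are unstated there, and so not given in the sources used here. Each deposited score is a gene's read count divided by a library factor and rounded by the authors. This was read from the values, whose spacing gave factors of 0.874, 0.946, 0.952 and 1.32. The factor above 1 merges read counts, so whole reads could not be recovered and no count model was used. Coordinates are as deposited; the largest, 78048911 on chromosome 4, exceeds that chromosome in GRCz10, so the build is unsettled.

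Columns were assigned by name, and 0 per-sample columns were left unused. Genes with a mean of 10 or more (16730) were fitted with limma 3.58.1 (limma-trend, R 4.3.3) after a log2(value + 1) transform, genotype being the only term, and p-values were adjusted by Benjamini-Hochberg over all of them. This scale understates changes of low genes. The fit had 2 residual degrees of freedom plus 4.01 from the other genes, and was tested on simulated data. The remaining tools were version 1.17.8 of data.table, Python 3.11.15, pandas 2.3.3, numpy 2.4.6 and matplotlib 3.10.9. By rule, values in each library were printed for the 3 members of each role with the smallest p, those higher in the mutant and those of highest and lowest mean, and of each other list for up to 3 genes with the smallest p and those higher at an unadjusted p under 0.05. The remaining members, DUT, gins4, pold3, pole3, pole4, dna2 and the chromosome 19 actc1a copy were added after values were seen. So were cd74a, csf1ra, mfap4 and c1qb, and the KEGG list. Members and lists were chosen with earlier results of these data known. Alternatives covered pseudocount, filter, scaling, block, voom and each library left out.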

Additional observations from a re-analysis of the deposited data

How the results depend on the processing

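Over 12 alternatives no gene passed an adjusted p of 0.05, and 47 of 53 members kept their sign in every one. The number of members lower in the mutant was 48 to 53, and their median log2 fold change -1.32 to -0.54. Scaling to the total without mitochondrial genes and voom moved the median of all genes to -0.18 and -0.24; the members' median relative to it was -0.97 and -0.98. With voom the clamp and single-strand binding medians were -0.79 and -0.96. Leaving out each library in turn gave 0 to 28 members lower at an unadjusted p under 0.05, Okazaki fragment medians of -1.60 to -0.59 and firing kinase medians of -1.13 to -0.20. The cause of these differences was not tested, and each fit with a library left out also had fewer samples.

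The sign turned for orc1, from a value near 0, under quantile normalisation (-0.00038), scaling without mitochondrial genes (-0.18) and voom (-0.24), and it ranged from -0.29 to 0.30 with each library left out. Quantile normalisation gave 0.03 for gmnn. With each library left out, the lowest and highest values were -1.49 and 0.07 for ccne2, -1.44 and 0.17 for cdc6, -1.10 and 0.32 for cdt1, -0.45 and 0.41 for gmnn, and -6.81 and 1.29 for the chromosome 19 copy of rrm2. The highest values came without wild-type replicate 2 for ccne2, cdc6 and gmnn, without mutant replicate 2 for cdt1 and orc1, and without wild-type replicate 1 for rrm2.

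In the labels, samples share only a number across genotypes. Deviations of same-numbered libraries had a correlation of 0.00406 over all genes tested, a value that cannot show whether they shared a batch. Among the 53 members, mutant replicate 1 was above mutant replicate 2 at 51, and wild-type replicate 2 above wild-type replicate 1 at 50. With the replicate block, 26 members were lower at an unadjusted p under 0.05 (8.67% of all genes), as without it, and the median of the members was -0.97.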
